A study of Rattus norvegicus with 15 samples.

Results

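Fragments of glutamate transfer RNAs (tRNA-Glu) were followed in the left ventricle of rats. The table of expression values named 714 tRNA-derived small RNAs (tsRNAs), and the 39 whose names began with tRF-Glu were taken. Of these, 15 carried the anticodon CTC and 24 the anticodon TTC, and they were compared across 15 libraries and with each other. Each library was made from left ventricle total RNA of a Sprague-Dawley rat, with 5 libraries per group. The control rats were untreated. The isoproterenol rats received isoproterenol, a beta-adrenergic agonist used to injure the heart muscle, and were described as having myocardial ischemia. The third group was placed on caloric restriction before the same drug and is called restricted plus isoproterenol here. No group was restricted without the drug, so restriction alone cannot be told apart from its combination with isoproterenol, and the labels give no age, sex, dose or timing.

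Transfer RNAs bring amino acids to the ribosome, and those with the anticodons CTC and TTC deliver glutamate at the codons GAG and GAA. In mammals the CTC anticodon belongs to tRNAs encoded in the nucleus, whereas TTC is also the anticodon of the mitochondrial tRNA-Glu. Enzymes cut tRNAs into tiRNAs, which are long pieces made by a cut in the anticodon loop, often by angiogenin under stress, and into the shorter tRFs, which come from the ends or the middle of a tRNA or from its precursor. The RefSeq annotation of the rat assembly GRCr8 listed 20 Glu-CTC and 10 Glu-TTC genes among 766 tRNA genes. The tsRNA names gave an amino acid, an anticodon and a serial number, with no position in the tRNA and no genome of origin, so members are called by number and TTC fragments could be nuclear or mitochondrial. The table holds tsRNAs alone, so the ventricle was not checked against its marker genes. In bulk tissue, fewer cells of a type and less RNA per cell cannot be told apart.

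Values were CPM, the authors' reads for a tsRNA per 1000000 reads of the library total. Totals ran from 106082 to 1128887 reads, the largest being control replicate 4, and 1 read was worth 0.886 to 9.43 CPM. Between 2701 and 15544 reads per library fell on the glutamate tRFs, and 35 to 39 members had at least 1 read. Listed tsRNAs of all kinds made up 28.6% ± 4.77 (SD, n = 5) of the total in control, 61.6% ± 13.6 (n = 5) in isoproterenol and 50.4% ± 13.6 (n = 5) in restricted plus isoproterenol libraries. The control range of 24.2% to 35.7% lay below both treated ranges, and the summed CPM of listed tsRNAs was higher in treated hearts. The part of this shift in each result was not tested, and fits on the CPM as deposited are given beside fits rescaled by the median of ratios across tsRNAs.

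CTC fragments made up the larger part of the glutamate tRF reads in every library, in some only slightly. They supplied 65.9% ± 9.74 (SD, n = 15) of the glutamate tRF reads, from 53.4% to 81.8%. A handful of CTC members carried nearly all of them: tRF-Glu-CTC-021, tRF-Glu-CTC-020, tRF-Glu-CTC-019, tRF-Glu-CTC-022 and tRF-Glu-CTC-018 together held 91.6% of CTC reads on average. The TTC reads were spread more evenly. The 5 most abundant TTC members, tRF-Glu-TTC-026, tRF-Glu-TTC-051, tRF-Glu-TTC-029, tRF-Glu-TTC-036 and tRF-Glu-TTC-039, held 58.6%, and the most abundant of them, tRF-Glu-TTC-026, held 14.7% ± 3.85 (SD, n = 15) of TTC reads. At the low end, 5 CTC and 8 TTC members had under 100 reads in the 15 libraries together. These shares describe reads, and the lengths of the tRFs, which could differ among members, were not used.

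The CTC share varied as much within a group as between groups. Glu-CTC reads per Glu-TTC read were 1.69, 1.94, 1.62, 4.49 and 3.98 in control replicates 1 to 5. They were 2.15, 1.15, 1.40, 2.85 and 3.27 in isoproterenol and 1.18, 3.43, 1.37, 1.44 and 1.36 in restricted plus isoproterenol replicates 1 to 5. All 3 groups overlapped. Of all listed tsRNA reads, CTC members took 2.44% ± 0.462 in control, 3.15% ± 1.17 in isoproterenol and 2.69% ± 0.555 in restricted plus isoproterenol hearts (SD, n = 5 each). TTC members took 1.10% ± 0.574, 1.70% ± 0.943 and 1.77% ± 0.681 in the same order. The groups again overlapped for both anticodons.

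**Figure D1:**
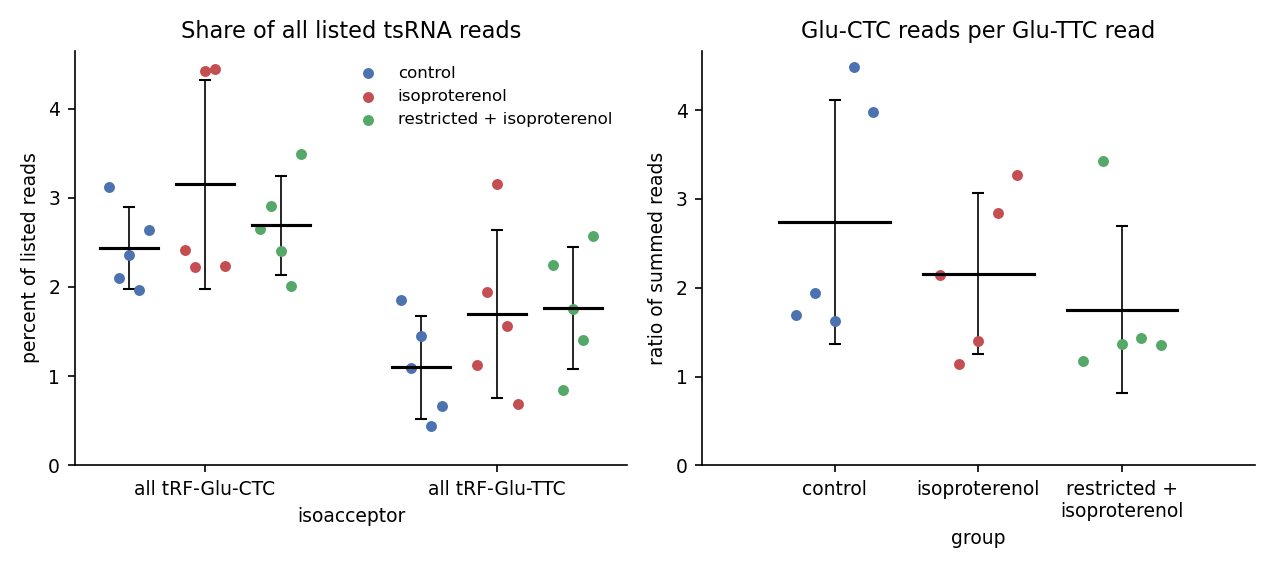
Left, the percent of all listed tsRNA reads taken by tRF-Glu-CTC and by tRF-Glu-TTC members, 1 point per library. Right, summed Glu-CTC reads per Glu-TTC read. Bars are means ± SD over 5 libraries per group. All 3 groups overlap in each panel, and the CTC sum exceeds the TTC sum in every library.

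1 pair of members crossed the anticodon boundary. tRF-Glu-CTC-017 had 1535 reads and tRF-Glu-TTC-046 had 1525, and they differed by at most 3 reads in any of the 15 libraries and not at all in 4. Over the libraries 0.588% of their reads were unmatched, whereas the next closest pair among all tsRNAs with at least 100 reads left 4.87% unmatched. The pair was noticed after its values were seen. Without sequences it is not known whether the same reads were given to both names, so these members are uncertain as separate species and each change below is counted once per name.

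**Figure D2:**
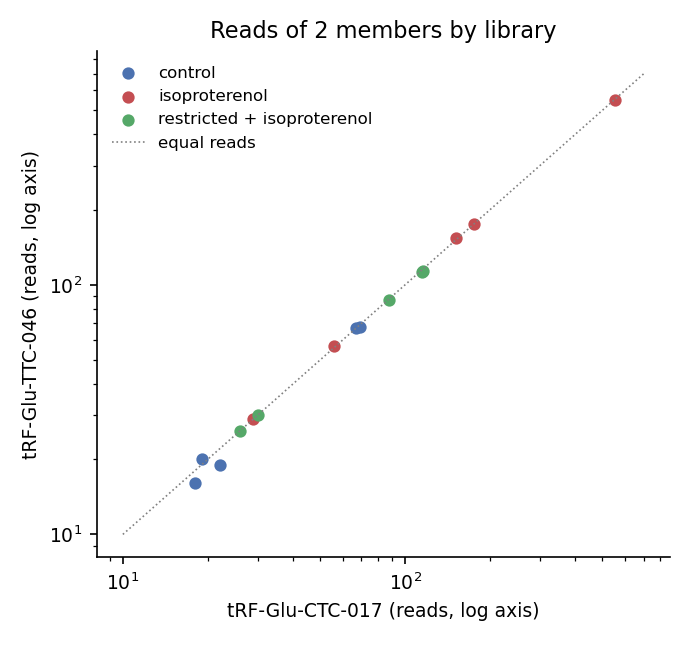
Reads of tRF-Glu-TTC-046 against reads of tRF-Glu-CTC-017 in 15 libraries, both axes logarithmic, coloured by group. The dotted line marks equal reads. Every library lies on the line or within 3 reads of it.

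On deposited CPM, 3 CTC fragments stood at nearly constant levels in untreated hearts. tRF-Glu-CTC-018 was at 1318, 1179, 1314, 1267 and 1153 CPM in control replicates 1 to 5. Its coefficient of variation of 6.13% was the lowest among 379 tsRNAs with at least 100 reads, where the median was 51.9%. tRF-Glu-CTC-020 was at 1695, 1443, 1573, 1530 and 1371 CPM, with the second lowest variation at 8.16%. tRF-Glu-CTC-019, at 1017 to 1435 CPM, varied by 12.2% and ranked sixth. These 3 members therefore gave similar deposited CPM in control libraries whose totals ran from 269508 to 1128887 reads. The other abundant CTC fragments did not: tRF-Glu-CTC-021 was at 2709, 285, 1039, 228 and 2616 CPM, a variation of 88.6%, and tRF-Glu-CTC-022 at 1713, 163, 367, 130 and 2592 CPM. Controls 1 and 5 were high and controls 2 and 4 low for both. TTC members with at least 100 reads had a median variation of 62.5% in control, and control replicate 4 was the lowest of the controls for each of the 5 most abundant TTC members. In treated hearts the constancy of tRF-Glu-CTC-018 was not seen: it varied by 49.7% with isoproterenol and by 50.8% with restriction plus isoproterenol. All these variations are of deposited CPM. The median-of-ratios factors of control replicates 1 to 5 were 0.802, 0.496, 0.759, 0.174 and 0.691. Levels near constant in CPM would therefore not be constant after that scaling, and the variation of rescaled values was not computed.

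The share of tRF-Glu-CTC-018 among CTC reads was lower in treated hearts. The order of the other abundant members varied within groups, except that tRF-Glu-CTC-020 always exceeded tRF-Glu-CTC-019. In control, tRF-Glu-CTC-020 led with 23.2% ± 7.01 of CTC reads, followed by tRF-Glu-CTC-019 with 19.3% ± 6.56, tRF-Glu-CTC-018 with 19.1% ± 5.90, tRF-Glu-CTC-021 with 16.4% ± 11.4 and tRF-Glu-CTC-022 with 11.4% ± 10.9 (SD, n = 5). The mean shares of neighbours in this order lay within their spread across libraries. Within each of the 15 libraries, however, tRF-Glu-CTC-020 exceeded tRF-Glu-CTC-019, the ratio of the latter to the former being 0.188 to 0.964. With isoproterenol, tRF-Glu-CTC-021 held 36.5% ± 13.7 of CTC reads and tRF-Glu-CTC-018 only 3.64% ± 2.63. With restriction plus isoproterenol the same members held 31.5% ± 13.3 and 6.50% ± 2.11. For tRF-Glu-CTC-018 the control range of 12.3% to 25.5% lay above the treated ranges of 1.43% to 7.91% and 4.20% to 9.40%. tRF-Glu-CTC-020 over tRF-Glu-CTC-021 overlapped in all groups, at 0.524 to 6.72 in control, 0.308 to 1.20 with isoproterenol and 0.294 to 1.75 with restriction, and tRF-Glu-CTC-021 already exceeded tRF-Glu-CTC-020 in controls 1 and 5.

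**Figure D3:**
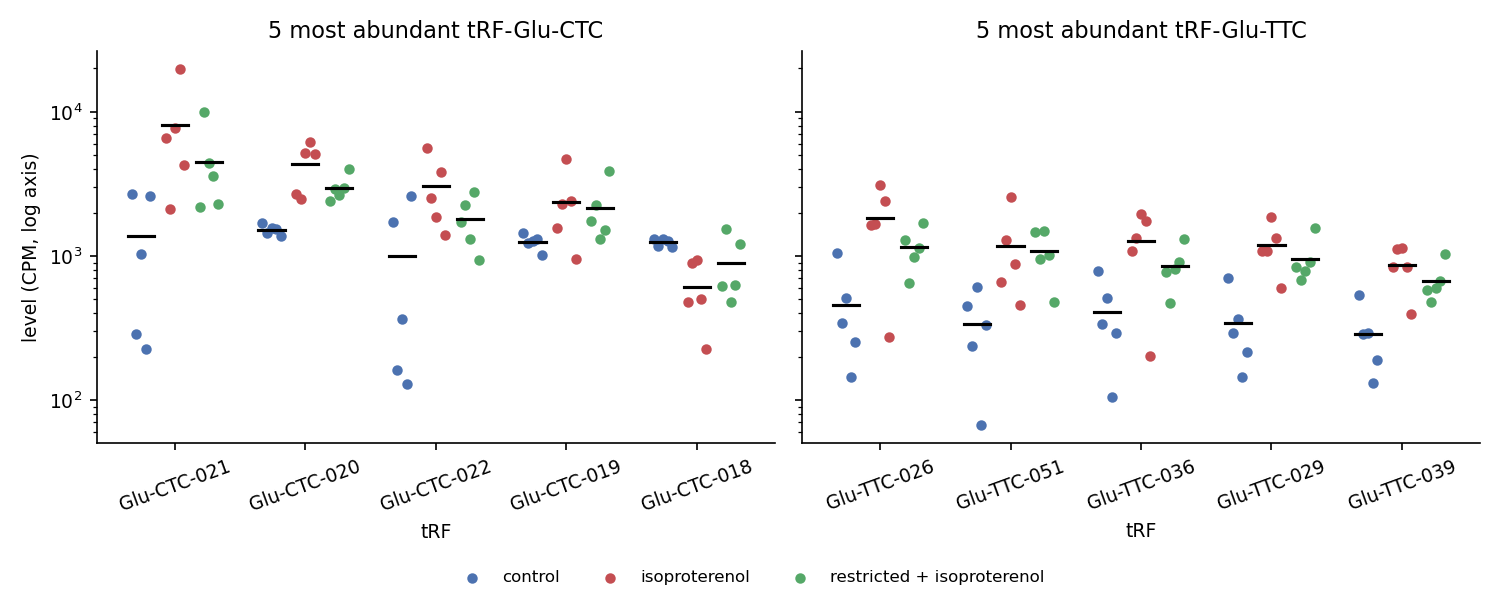
Levels (CPM, log axis) of the 5 most abundant tRF-Glu-CTC members, left, and tRF-Glu-TTC members, right. Points are libraries, 5 per group, and bars are group means. In control, tRF-Glu-CTC-018, tRF-Glu-CTC-019 and tRF-Glu-CTC-020 lie close together while tRF-Glu-CTC-021 and tRF-Glu-CTC-022 spread over more than a log unit. tRF-Glu-CTC-018 lies lower in all isoproterenol libraries than in any control.

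The effect of isoproterenol was asked first, against untreated hearts. On the deposited CPM, 15 of 24 TTC members rose and none fell, while 5 of 15 CTC members rose and 2 fell. limma, with Benjamini-Hochberg adjustment over all 707 tsRNAs tested and a threshold of 0.05, gave these calls, and all 39 members were among those tested. Members were not independent of each other. Among those with at least 100 reads, the median correlation of levels within groups was 0.589 for TTC pairs. It was 0.178 for CTC pairs and 0.409 for pairs across the anticodons. Calls in a list are therefore not separate pieces of evidence. Of all tested tsRNAs, 35.5% rose and 12.4% fell, so the share of CTC members that rose was near this background and that of TTC members above it. Control libraries also had more reads, 495471 ± 360465 against 269329 ± 166043 with isoproterenol and 256426 ± 88370 with restriction (SD, n = 5). Within groups, the log2 level correlated negatively with the log2 library total, which is the denominator of CPM, in 14 of 16 TTC and 9 of 10 CTC members with at least 100 reads and in 299 of 379 such tsRNAs. The median correlation was -0.707 over these TTC members, -0.414 over these CTC members and -0.607 over all such tsRNAs. With that total as covariate 9 TTC members rose and none fell and 6 CTC members rose and 2 fell, where 23.2% of all tsRNAs rose and 14.3% fell. The shares of CTC and TTC members that rose were then both above the background, and the TTC share no longer exceeded the CTC share. The median log2 fold change was 1.76 over TTC members, 1.02 over CTC members and 1.26 over all tsRNAs. After rescaling by the median of ratios these medians were 0.57, -0.10 and 0.15, so the CTC median changed sign. Of all tsRNAs, 16.1% were then higher and 19.7% lower, and among glutamate tRFs only tRF-Glu-TTC-046 remained higher and tRF-Glu-CTC-018 and tRF-Glu-CTC-014 remained lower.

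Several CTC fragments with large increases on deposited CPM also varied widely among controls. tRF-Glu-CTC-021 was at 6615, 2110, 7730, 19966 and 4246 CPM with isoproterenol, against the control values above. The groups overlapped, because isoproterenol replicate 2 lay below controls 1 and 5. Its mean was 8133 ± 6962 CPM (SD, n = 5) against 1375 ± 1218, and the log2 fold change was 2.84 ± 0.60 (SE), with a limma adjusted p of 0.000172. tRF-Glu-CTC-022 was at 5598, 2516, 1876, 3840 and 1395 CPM and rose by 2.40 ± 0.61 on the log2 scale (limma adjusted p = 0.00121). It overlapped with control too. tRF-Glu-CTC-017, of the near-equal pair, rose by 2.75 (limma adjusted p = 0.000369), from 113 ± 96.6 to 668 ± 582 CPM (SD, n = 5).

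tRF-Glu-CTC-020 rose from a narrow control range. Its isoproterenol values were 2691, 2485, 5166, 6147 and 5080 CPM. Every one lay above the highest control, 1695 CPM. The log2 fold change was 1.41 ± 0.47 (SE; limma adjusted p = 0.0115) on deposited CPM and 0.17 (adjusted p = 0.833) with median-of-ratios scaling. tRF-Glu-CTC-019, at 1559, 2281, 4676, 2419 and 952 CPM, overlapped with control and did not pass the test (log2 fold change 0.73, limma adjusted p = 0.202), and its estimate was -0.51 under the other scaling. The rare tRF-Glu-CTC-026, with 35 reads in all, was at 7.42 to 21.3 CPM against 0 to 4.72 CPM in control (log2 fold change 2.62, limma adjusted p = 0.0118).

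tRF-Glu-CTC-018 and tRF-Glu-CTC-014 moved the other way. tRF-Glu-CTC-018 was at 483, 891, 943, 499 and 225 CPM with isoproterenol. All 5 values lay below the lowest control, 1153 CPM, and it was the only glutamate member lower without overlap. Its mean fell from 1246 ± 76.3 to 608 ± 302 CPM (SD, n = 5), which was -1.20 ± 0.51 (SE) on the log2 scale, with a limma adjusted p of 0.0459. tRF-Glu-CTC-014 was at 119, 344, 349, 146 and 64.1 CPM with isoproterenol and at 476, 585, 497, 418 and 299 CPM in control. Isoproterenol replicates 2 and 3 overlapped with control replicate 5, and its log2 fold change was -1.40 ± 0.54 (limma adjusted p = 0.0295). With median-of-ratios scaling the changes were -2.45 for tRF-Glu-CTC-018 and -2.64 for tRF-Glu-CTC-014 (limma adjusted p = 0.000387 and 5.01e-05). On deposited CPM the call of tRF-Glu-CTC-018 was lost in 10 of 15 fits that left out 1 library (any control, isoproterenol 1, 4 or 5, or restricted 4 or 5; adjusted p 0.0504 to 0.116), with estimates from -1.41 to -0.89, and it was also lost with a replicate block (adjusted p = 0.0569) and with a pseudocount of 5 (adjusted p = 0.0535). On the recovered reads, edgeR gave -1.04 (adjusted p = 0.0664) with the authors' totals and -2.70 (adjusted p = 0.000388) with TMM scaling, and DESeq2 gave -2.77 (adjusted p = 1.05e-06). That of tRF-Glu-CTC-014 was lost in 5, without control 2 or 3 or isoproterenol 1, 4 or 5 (adjusted p 0.0533 to 0.0763).

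The 5 most abundant TTC members all rose on deposited CPM. tRF-Glu-TTC-026 was at 1648, 1672, 3092, 2422 and 272 CPM with isoproterenol and at 1047, 342, 512, 144 and 254 CPM in control. Isoproterenol replicate 5 was low, and the groups overlapped. Its log2 fold change was 1.94 ± 0.57 (SE; limma adjusted p = 0.0049). The same replicate was the lowest of its group for tRF-Glu-TTC-051, tRF-Glu-TTC-036, tRF-Glu-TTC-029 and tRF-Glu-TTC-039, which rose by 1.85, 1.58, 1.91 and 1.65 on the log2 scale (limma adjusted p = 0.00642, 0.0201, 0.00233 and 0.0077). Without control 4 or isoproterenol 3 or 4, tRF-Glu-TTC-036 no longer passed. With median-of-ratios scaling none of these 5 passed.

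The largest TTC fold changes were in scarcer members. tRF-Glu-TTC-045, with 106 reads in all, had a log2 fold change of 2.85 (limma adjusted p = 0.00317), and tRF-Glu-TTC-046, the near-equal partner of tRF-Glu-CTC-017, of 2.82 (adjusted p = 0.000268). tRF-Glu-TTC-046 was the only glutamate member higher under both scalings, at 1.59 (limma adjusted p = 0.0433) with the median of ratios. tRF-Glu-CTC-017 did not pass there, although the pair differed by at most 3 reads in any library. This call therefore does not set the anticodons apart. tRF-Glu-TTC-047 rose by 2.50 (limma adjusted p = 0.0201), but isoproterenol replicate 4 stood at 191.7 CPM and replicate 2 at 0, and without control 4 or isoproterenol 4 it did not pass. Values did not overlap between the groups for 5 members that were higher, tRF-Glu-CTC-020, tRF-Glu-CTC-026, tRF-Glu-TTC-009, tRF-Glu-TTC-028 and tRF-Glu-TTC-048, and for tRF-Glu-CTC-018, which was lower. Of all tested tsRNAs, 19% were higher and 8.49% lower without overlap, larger shares than the 5 and 1 of 39 glutamate members. tRF-Glu-TTC-048 had 7 reads in control and 33 with isoproterenol. Its lowest isoproterenol value, 9.43 CPM in replicate 3, was 1 read. Here tRF-Glu-TTC-009, although scarce, was at 78.0, 39.1, 188.5, 30.4 and 23.3 CPM with isoproterenol against 4.43 to 14.6 CPM in control. Among members that did not pass, log2 fold changes ran from -0.08 (tRF-Glu-TTC-056) to 1.89 (tRF-Glu-TTC-024) in 9 TTC members and from -0.67 (tRF-Glu-CTC-012) to 2.16 (tRF-Glu-CTC-027) in 8 CTC members.

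**Figure D4:**
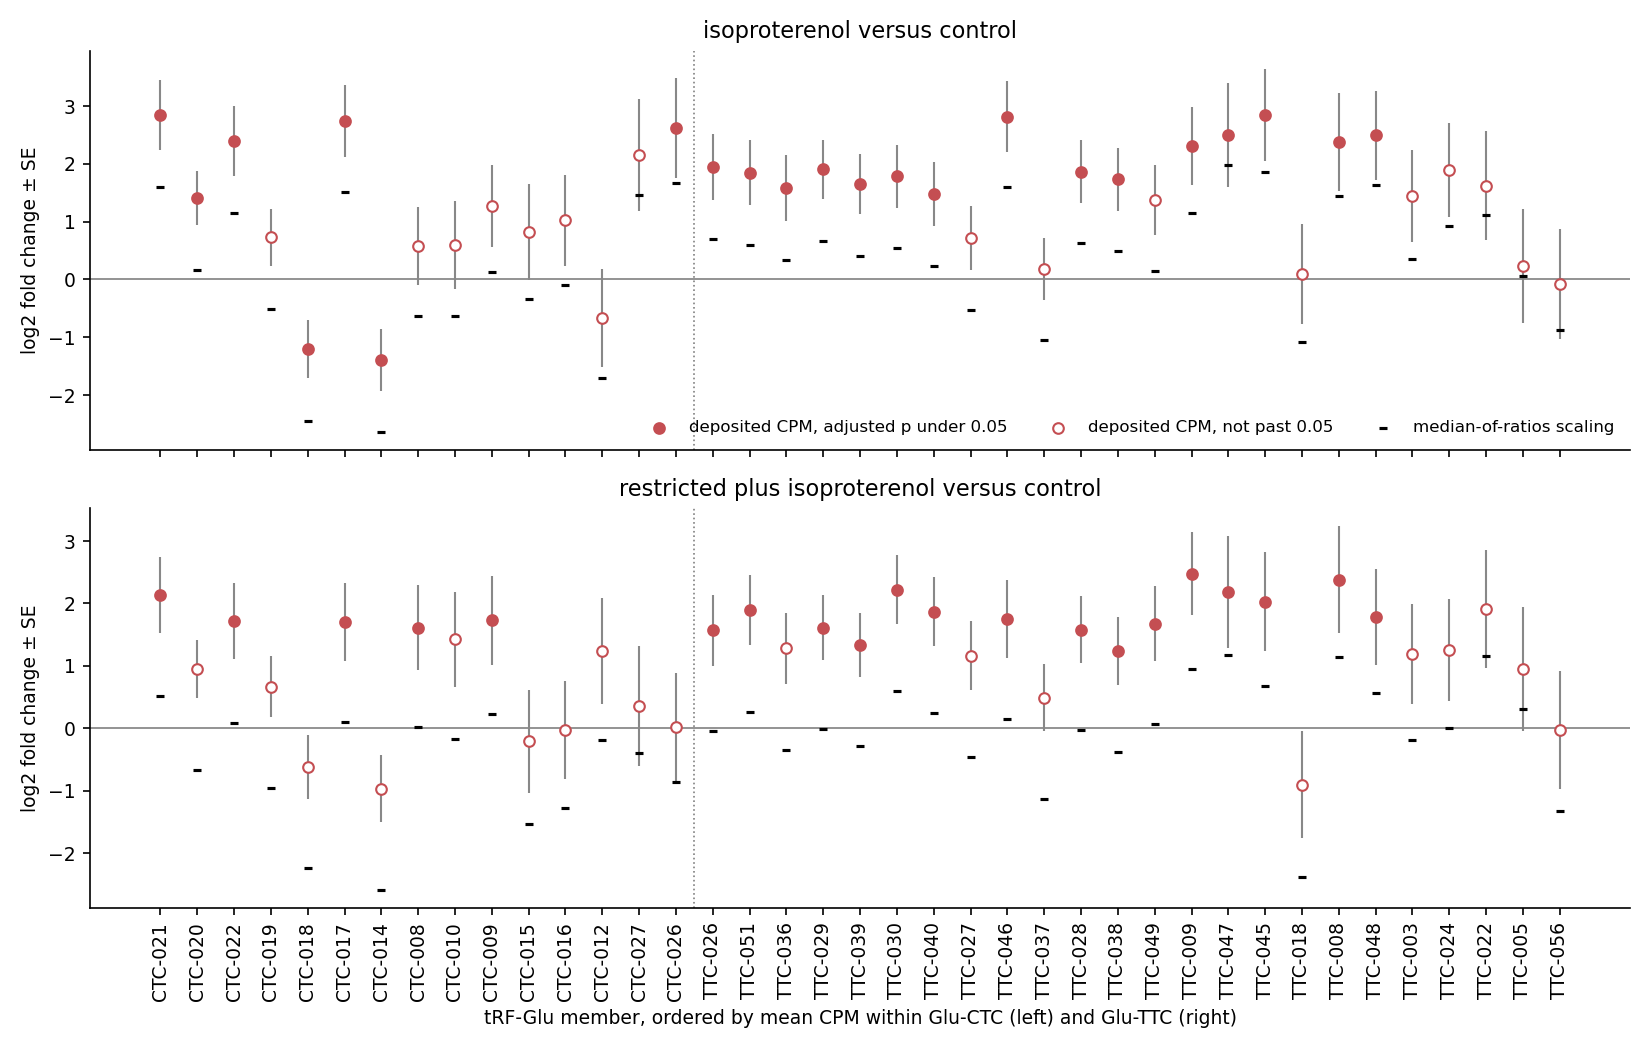
log2 fold change (± SE) of each tRF-Glu member against control for isoproterenol, top, and restriction plus isoproterenol, bottom, with CTC members left of the dotted line and TTC members right, each ordered by mean CPM. Circles are deposited CPM, filled where the limma adjusted p is under 0.05, and dashes are estimates with median-of-ratios scaling. On deposited CPM, 15 of 24 TTC members are higher in each comparison. Of all tested tsRNAs, 35.5% are higher with isoproterenol and 47.7% with restriction plus isoproterenol. The dashes lie lower throughout, and the CTC median then changes sign. tRF-Glu-CTC-018 and tRF-Glu-CTC-014 are below 0 under both scalings in both panels.

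Hearts that had caloric restriction before isoproterenol were next set against the same 5 untreated controls. On deposited CPM, 15 of 24 TTC members and 5 of 15 CTC members rose and none fell (limma, adjusted p under 0.05). Of all tested tsRNAs, 47.7% rose and 10.7% fell, a background above the share of CTC members that rose and below that of TTC members. With the library total as covariate 8 TTC members rose and 1 fell and 2 CTC members rose and 1 fell, where 36.9% of all tsRNAs rose and 10.9% fell, so the TTC share was then not above the background. The median log2 fold change was 1.60 over TTC members, 0.95 over CTC members and 1.60 over all tsRNAs. With median-of-ratios scaling these medians were 0.04, -0.40 and 0.24, so the CTC median again changed sign. No glutamate member then passed as higher, and 4 passed as lower, tRF-Glu-CTC-014 (-2.58), tRF-Glu-CTC-018 (-2.24), tRF-Glu-TTC-018 (-2.37) and tRF-Glu-TTC-037 (-1.13). By that scaling 15.1% of all tsRNAs were higher and 20.7% lower.

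Among the abundant CTC fragments, tRF-Glu-CTC-021 and tRF-Glu-CTC-022 again had the largest increases on deposited CPM. tRF-Glu-CTC-021 was at 2204, 9920, 4382, 3608 and 2303 CPM. It overlapped with controls 1 and 5, and its log2 fold change was 2.14 ± 0.60 (SE; limma adjusted p = 0.00294). tRF-Glu-CTC-022 was at 1734, 2244, 1311, 2797 and 935 CPM and rose by 1.71 ± 0.61 on the log2 scale (limma adjusted p = 0.0142), a call lost without control 2 or 4. By edgeR with TMM scaling tRF-Glu-CTC-021 was at 0.74 and tRF-Glu-CTC-022 at -0.26 (edgeR adjusted p = 0.405 and 0.753). By DESeq2 the same members were at 0.61 and -0.36 (DESeq2 adjusted p = 0.490 and 0.652), so neither passed. tRF-Glu-CTC-020, at 2393, 2913, 2639, 2946 and 4020 CPM, lay above every control but missed the threshold (log2 fold change 0.95, limma adjusted p = 0.0736). By median-of-ratios scaling its estimate was -0.67. tRF-Glu-CTC-019 was at 1311 to 3877 CPM (log2 fold change 0.67, limma adjusted p = 0.241).

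The CTC fragments lower with isoproterenol did not pass here on deposited CPM. tRF-Glu-CTC-018 was at 623, 1529, 477, 626 and 1214 CPM (log2 fold change -0.62, limma adjusted p = 0.292). Replicates 2 and 5 were at or above control levels and the other 3 below. tRF-Glu-CTC-014 was at 195, 199, 212, 264 and 279 CPM, all below the lowest control of 299 CPM (log2 fold change -0.96, limma adjusted p = 0.115). It was the only member lower without overlap, and 4 were higher without overlap, tRF-Glu-CTC-012, tRF-Glu-CTC-020, tRF-Glu-TTC-009 and tRF-Glu-TTC-030, where 31.1% of all tested tsRNAs were higher and 9.19% lower. Both were larger shares than the 4 and 1 of 39 glutamate members. tRF-Glu-CTC-012 cleared control narrowly, its lowest restricted value being 7.55 CPM and its highest control value 7.42 CPM. It had 17 reads in the restricted and 11 in the control libraries.

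Among TTC members, tRF-Glu-TTC-030 was at 842, 528, 1031, 1281 and 657 CPM against 410, 167, 278, 47.8 and 186 CPM in control. Its groups did not overlap, and the log2 fold change was 2.22 ± 0.55 (SE; limma adjusted p = 0.000981). The scarcer tRF-Glu-TTC-009 rose by 2.48 (limma adjusted p = 0.00203), from 10.5 ± 3.74 to 68.5 ± 36.5 CPM (SD, n = 5). tRF-Glu-TTC-008, tRF-Glu-TTC-047 and tRF-Glu-TTC-045 followed with 2.38, 2.18 and 2.03, all resting on 144 reads or fewer in all libraries, and each was lost without some single library: control 3 for tRF-Glu-TTC-008, control 2 or 4 or restricted 1, 2 or 3 for tRF-Glu-TTC-047, and control 3 or 5 or restricted 1 for tRF-Glu-TTC-045. The abundant tRF-Glu-TTC-026, tRF-Glu-TTC-051, tRF-Glu-TTC-029 and tRF-Glu-TTC-039 rose by 1.57, 1.89, 1.61 and 1.34 (limma adjusted p = 0.0168, 0.00423, 0.00715 and 0.0235), and tRF-Glu-TTC-036 missed the threshold at 1.28 (adjusted p = 0.0504). Control replicate 4 weighed on these counts: without it 8 TTC and 1 CTC members passed. CTC members also numbered 2 or 3 without control 2 or restricted 1, 3 or 4, and tRF-Glu-TTC-026 (without control 4) and tRF-Glu-TTC-039 (without control 4 or 5 or restricted 5) no longer passed. The shares of all tsRNAs that passed in these fits are not given here.

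The comparison that bears on restriction is between both drug-treated groups. None of the 39 members passed limma there, as for all 707 tsRNAs (0% higher and 0% lower). At an unadjusted p under 0.05 there were 2 members, where all tsRNAs gave 116, and edgeR's quasi-likelihood test on the recovered reads called none of the 23 members it could test. DESeq2 called tRF-Glu-CTC-017 and tRF-Glu-TTC-046, the near-equal pair, lower with restriction, at -1.79 and -1.82 on the log2 scale (adjusted p = 0.0385 and 0.0369), where it called 2.93% of tested tsRNAs higher and 9.38% lower. Isoproterenol replicate 4 stood at 1680 CPM for tRF-Glu-CTC-017 while the other 4 were at 227 to 564 CPM. The median log2 difference was -0.46 over CTC members, -0.27 over TTC members and 0.44 over all tsRNAs.

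The 3 members with the smallest p in that comparison were all scarce CTC fragments. tRF-Glu-CTC-026 was at 0, 5.03, 0, 3.62 and 4.50 CPM with restriction and 7.42, 15.6, 18.9, 21.3 and 19.4 CPM with isoproterenol alone. The groups did not overlap, and the control values of 0 to 4.72 CPM lay with the restricted group. Its log2 difference was -2.60 ± 0.87 (SE; limma adjusted p = 0.204), but it had 4 reads in the restricted, 23 in the isoproterenol and 8 in the control libraries. With the log2 library total added to the model it passed, at -2.66 (limma adjusted p = 0.0410), in a fit that called 5.23% of all tsRNAs higher and 0.849% lower. tRF-Glu-CTC-012 and tRF-Glu-CTC-027 had log2 differences of 1.90 and -1.80 (limma adjusted p = 0.267 and 0.342) on 34 and 39 reads in all libraries.

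A ratio of members within a library does not depend on the total it was divided by. 3 such ratios, set by abundance, were compared between groups with a two-sided exact permutation test on 5 and 5 libraries, in which no p can be under 0.00794, and p-values were adjusted over the 9 tests. For the tests 1 CPM was added to both members, and the ratios given here are without it. tRF-Glu-CTC-021 over tRF-Glu-TTC-026, the leading member of each anticodon, was 2.59, 0.835, 2.03, 1.59 and 10.3 in control. It was 4.01, 1.26, 2.50, 8.24 and 15.6 with isoproterenol and 1.71, 15.3, 4.48, 3.20 and 1.35 with restriction plus isoproterenol. All groups overlapped. The mean log2 ratio was higher than control by 0.90 (exact p = 0.341, adjusted p = 0.821) with isoproterenol and by 0.57 (exact p = 0.516, adjusted p = 0.821) with restriction. tRF-Glu-CTC-020 over tRF-Glu-CTC-021 differed from control by -1.43 and -1.19 on the log2 scale (exact p = 0.151 and 0.222), and tRF-Glu-TTC-051 over tRF-Glu-TTC-026 by -0.09 and 0.32 (exact p = 0.873 and 0.587). None of the 9 tests passed adjustment (adjusted p 0.821 to 0.873), and no difference between the drug-treated groups in these ratios passed either (exact p 0.508 to 0.73).

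Ratios to tRF-Glu-CTC-018 were chosen after the values were seen and are given with no test. Those of tRF-Glu-CTC-020 and tRF-Glu-CTC-019 separated control from both treated groups. Those of tRF-Glu-CTC-021, tRF-Glu-CTC-017, tRF-Glu-CTC-008 and tRF-Glu-CTC-009 lay wholly above control with isoproterenol but overlapped with control in the restricted group. For tRF-Glu-CTC-008 the gap was small, from 0.0818 in control to 0.0846 with isoproterenol. The other CTC members with at least 100 reads overlapped in both comparisons. tRF-Glu-CTC-020 over tRF-Glu-CTC-018 was 1.29, 1.22, 1.20, 1.21 and 1.19 in control, a mean of 1.22 ± 0.0388 (SD, n = 5). It was 5.58, 2.79, 5.48, 12.3 and 22.5 with isoproterenol and 3.84, 1.91, 5.53, 4.71 and 3.31 with restriction plus isoproterenol. Every treated library lay above every control, and the 2 treated groups overlapped with each other. With isoproterenol this separation adds nothing new, because tRF-Glu-CTC-020 alone lay wholly above control and tRF-Glu-CTC-018 alone wholly below. How many other pairs of tsRNAs would separate in this way was not counted. tRF-Glu-CTC-019 over tRF-Glu-CTC-018 ran from 0.882 to 1.09 in control, from 2.56 to 4.96 with isoproterenol and from 1.48 to 3.19 with restriction. tRF-Glu-CTC-021 over tRF-Glu-CTC-018 was 0.180 to 2.27 in control, 2.37 to 40.0 with isoproterenol and 1.90 to 9.18 with restriction, so the restricted group overlapped with control. tRF-Glu-CTC-022 overlapped in both comparisons, at 0.103 to 2.25, 1.99 to 11.6 and 0.770 to 4.47. Likewise, tRF-Glu-CTC-014 over tRF-Glu-CTC-018 overlapped in all groups, at 0.259 to 0.496, 0.246 to 0.386 and 0.130 to 0.443. These ratios share their denominator, so they are not independent of each other.

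**Figure D5:**
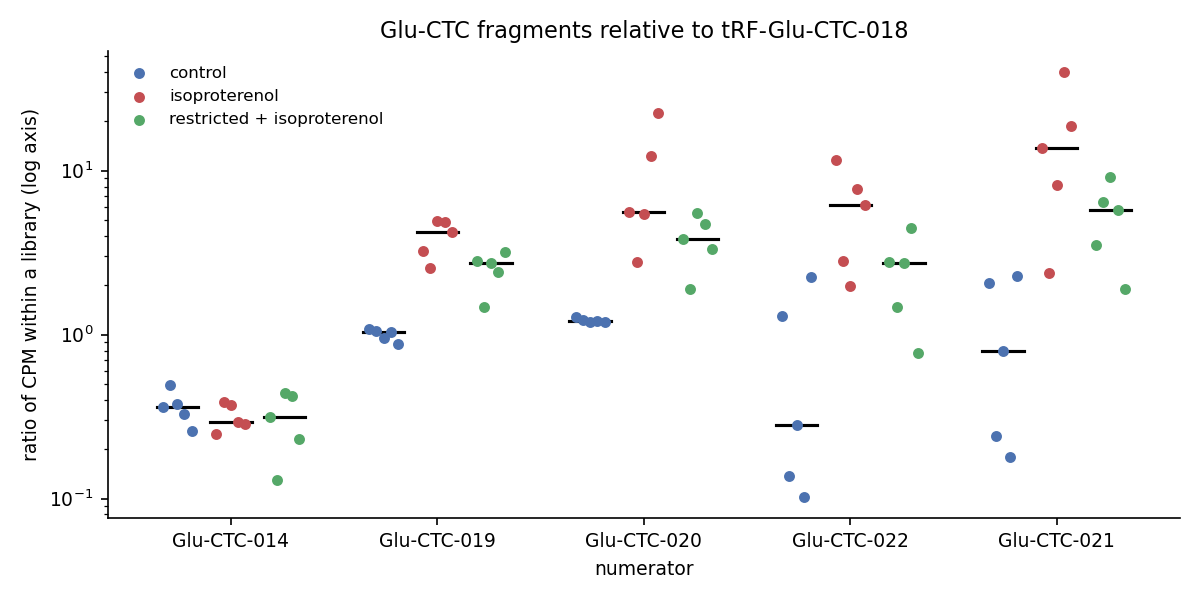
Ratio of the CPM of 5 Glu-CTC members to that of tRF-Glu-CTC-018 within each library, on a log axis, with 5 libraries per group and bars at the median. For tRF-Glu-CTC-019 and tRF-Glu-CTC-020 every treated library lies above the tight control cluster. For tRF-Glu-CTC-014 the groups overlap.

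The longer tiRNAs of the same tRNAs were few. The 1 CTC tiRNA, tiRNA-Glu-CTC-002, was at 1073 ± 275 CPM in control, 1404 ± 899 with isoproterenol and 1048 ± 338 with restriction plus isoproterenol (SD, n = 5), and did not pass in either comparison with control. Of the 3 TTC tiRNAs, tiRNA-Glu-TTC-001 and tiRNA-Glu-TTC-002 rose with isoproterenol by 2.63 and 2.14 on the log2 scale (limma adjusted p = 0.000388 and 0.00373), and with restriction tiRNA-Glu-TTC-001 rose by 1.78 (adjusted p = 0.0107). With median-of-ratios scaling neither passed with isoproterenol, at 1.39 and 0.90, and with restriction tiRNA-Glu-CTC-002 and tiRNA-Glu-TTC-003 passed as lower, at -1.69 and -1.76. Glutamine and lysine tRNAs also pair a T-starting and a C-starting anticodon. With isoproterenol on deposited CPM, 8 of 33 tested Gln-TTG tRFs rose and 8 fell, 5 of 14 Gln-CTG rose and 1 fell, 4 of 8 Lys-TTT fell and none rose, and 8 of 15 Lys-CTT rose and 1 fell, beside 35.5% higher and 12.4% lower of all tested tsRNAs. In both, the C-starting anticodon had the higher median (1.28 against 0.14 for glutamine, 1.62 against -1.56 for lysine), whereas for glutamate it was the lower one, 1.02 against 1.76. With median-of-ratios scaling the order within each amino acid was the same, at 0.09 against -0.88 for glutamine, 0.40 against -2.67 for lysine and -0.10 against 0.57 for glutamate. These differences between lists were not tested.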

How the data were processed

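Libraries were made from left ventricle total RNA after a commercial pretreatment for modified tRNA fragments, and products of 134 to 160 bp (inserts of 14 to 40 nt) were kept, per the labels' protocols. Cutadapt and edgeR are named without roles, per the submitters' processing notes. Nothing names the aligner, the tRNA reference or the genome build (not given in the sources used here). Values deposited by the authors were CPM, the reads of a tsRNA per 1000000 reads of the library total, for each tsRNA. All values (100%) were whole multiples of 1 read within 0.001 reads, which gave each total and the recovered reads. No source used here says whether reads were collapsed or sampled before counting, and shares carry counting error of amplified reads that are not independent molecules.

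limma 3.58.1 (R 4.3.3; trend) was run on log2(CPM + 1) on the 707 tsRNAs that reached 1 CPM in 5 or more libraries, with 3 groups in 1 model, two-sided, with Benjamini-Hochberg adjustment per comparison. The fold change is on this scale and understates the change of scarce tsRNAs. The design allowed for counts or CPM, and the tests for CPM were used. Alternatives were other scalings, pseudocounts (0.5 and 5), filters (none, or at least 10 CPM), edgeR 4.0.16 and DESeq2 1.42.0 on the recovered reads (10 reads or more in 5 or more libraries), the library total as covariate, a replicate block and leaving out each library. With the authors' totals edgeR called 178 tsRNAs higher and 53 lower of 341 for isoproterenol versus control, 201 and 50 for restricted plus isoproterenol versus control, and 0 and 1 between the drug-treated groups. The fits were tried on simulated counts with the same spread for every tsRNA and known changes drawn alike in both directions. That trial did not copy the differing listed share of these libraries, so it does not bear on the choice of scaling. Named were the 5 most abundant members per anticodon, up to 6 called in each direction with the largest fold change and, between the drug-treated groups, the 3 with the smallest p. The members, lists and comparisons were chosen with earlier results of these data known. The labels number the rats within a group and give no other origin, so p-values measure the spread between these samples.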

Additional observations from a re-analysis of the deposited data

Results flagged for a closer look

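In groups of 5, a library was picked out when its gap to the nearest other exceeded 0.71 of the group's range (Dixon's 95% limit). This occurred in 5 of 63 groups tested (7.94%). Chance gives about 1 in 20 for values that are normal and independent. These values were CPM without a log, and the near-equal pair was flagged under both names, so no excess over chance can be read from the count. Isoproterenol replicate 4 accounted for 3 of them: it was at 1680 CPM for tRF-Glu-CTC-017 (next highest 564 CPM), at 1677 CPM for its near-equal partner tRF-Glu-TTC-046 (next highest 572 CPM) and at 191.7 CPM for tRF-Glu-TTC-047 (next highest 46.6 CPM). Restricted plus isoproterenol replicate 2 was at 9920 CPM for tRF-Glu-CTC-021, where the next highest was 4382 CPM. Restricted plus isoproterenol replicate 5 was at 1565 CPM for tRF-Glu-TTC-029, where the next highest was 908 CPM.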

How the results depend on the processing

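The scaling of libraries decided most counts, and the cause was not tested. With isoproterenol 7 CTC (5 higher, 2 lower) and 15 TTC members (all higher) passed as deposited. With median-of-ratios scaling (factors 0.174 to 2.40) 2 CTC (2 lower) and 1 TTC (1 higher) passed, scaled to the listed reads 4 CTC (2 lower) and 1 TTC (1 higher), by edgeR with TMM 3 CTC (2 lower) and 3 TTC (1 lower), by DESeq2 4 CTC (2 lower) and 3 TTC (1 lower), and with the library total as covariate 9 TTC (0 lower). With restriction plus isoproterenol 5 and 15 passed as deposited, all higher. Median-of-ratios scaling gave 2 CTC and 2 TTC, TMM 2 and 1, and DESeq2 3 and 1, all of them lower. The listed reads gave 3 CTC (2 lower) and 1 TTC (1 higher), and the covariate 3 CTC (1 lower) and 9 TTC (1 lower). edgeR and DESeq2 tested 23 of the 39 members. Of all 341 tsRNAs they tested, TMM called 71 higher and 83 lower with isoproterenol and 79 and 87 with restriction, and DESeq2 79 and 89, and 83 and 100. Of 707, the listed reads gave 99 and 120, and 198 and 101. Between the drug-treated groups, DESeq2 called 1 CTC and 1 TTC member and the covariate fit 1 CTC member, all lower.

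Signs of members named above changed as follows. With isoproterenol tRF-Glu-CTC-019 was at -0.51 (median of ratios), -0.36 (listed reads), -0.76 (TMM) and -0.84 (DESeq2). With restriction plus isoproterenol tRF-Glu-CTC-019 was at -0.96, -0.12, -1.01 and -1.17 in that order. By median of ratios, TMM and DESeq2, tRF-Glu-CTC-020 was at -0.67, -0.79 and -0.96, tRF-Glu-TTC-026 at -0.050, -0.053 and -0.21, tRF-Glu-TTC-036 at -0.34, -0.27 and -0.41, and tRF-Glu-TTC-039 at -0.28, -0.24 and -0.40. tRF-Glu-CTC-022 was at -0.26 (TMM) and -0.36 (DESeq2), and tRF-Glu-TTC-029 at -0.0076 (median of ratios) and -0.11 (DESeq2). Of these, only the DESeq2 value of tRF-Glu-CTC-019 with restriction passed (adjusted p = 0.0390). tRF-Glu-TTC-037, at 0.19 as deposited with isoproterenol, was called lower by TMM and DESeq2, at -1.17 and -1.22 (adjusted p = 0.0184 and 0.0067), and with restriction at -1.11 and -1.28 (adjusted p = 0.0232 and 0.00425). In the same order tRF-Glu-TTC-027 was at -0.50 and -0.55 with isoproterenol, and with restriction tRF-Glu-TTC-028 was at -0.056 and -0.21 and tRF-Glu-TTC-038 at -0.28 and -0.42.

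Leaving out 1 library gave 5 to 8 CTC and 12 to 19 TTC members with isoproterenol, 1 to 6 and 8 to 17 with restriction plus isoproterenol, and 0 between the drug-treated groups. The log2 ratio of tRF-Glu-TTC-051 over tRF-Glu-TTC-026 with isoproterenol ran from -0.42 to 0.14. Between the drug-treated groups, that of tRF-Glu-CTC-021 over tRF-Glu-TTC-026 ran from -0.87 to 0.12 and that of tRF-Glu-CTC-020 over tRF-Glu-CTC-021 from -0.052 to 0.59. Levels showed little pairing by replicate number: same-numbered libraries correlated above 0.1 in 1 of 15 pairs, and 3 of 15 libraries correlated best with their own number. The labels do not say whether same-numbered rats were handled together, and these correlations cannot decide it. With a replicate block 7 CTC and 16 TTC members passed with isoproterenol, 5 and 14 with restriction plus isoproterenol and 0 between the drug-treated groups. The shares of all tsRNAs called in this fit and in those that left out 1 library are not given here. These counts are therefore not set against a background. Without the near-equal pair each list lost 1 call.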
